A study of Mus musculus with 4 samples.

Results

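A set of 10 genes tied to the self-renewal of stem cells was examined in ATAC-seq peak lists of mouse embryonic stem cells: Sall4, Lin28a, Dppa2, Dppa4, Utf1, Fgf4, Tdgf1, Mycn, Myc and Trim71. They are 10 of the 21883 protein-coding genes in the RefSeq table of assembly GRCm38.p6. A peak belonged to a gene when it overlapped the gene body or the 20 kb on either side, which together are called the window. It was called a gene-end peak when it came within 1 kb of either end of the gene, and a distal peak otherwise, so that distal peaks include those inside the gene. ATAC-seq marks open chromatin by the places where a transposase can insert sequencing adapters. The genotypes wt and Hox-/- were compared, with 2 libraries of each. The Hox-/- library titles carry the code BADC, and the series title describes the models as lacking all Hox function. Both genotypes were grown in the same medium with fetal bovine serum, 100 ng/ml of leukaemia inhibitory factor, 3 μM of the GSK-3 inhibitor CHIR99021 and 1 μM of the MEK1/2 inhibitor PD0325901. Per the labels each library was made from 50k cells. Nothing in the labels says whether the 2 libraries of a genotype came from separate cultures or clones, so the spread between them may be technical.

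The lists held 191704 to 216795 peaks. Relative depth, read from the background at the peaks, stood lowest in Hox-/- replicate 1, at 0.635 relative to wt replicate 1, and was 0.942 and 0.987 in the remaining libraries. As a check of the labels, the span of the 4 Hox clusters (39 Hox genes) held 183 and 188 peaks in the wt libraries and 6 and 4 in the Hox-/- libraries. A gene-end peak was called in all 4 libraries at 7 of 7 stem cell markers (among them Pou5f1, Sox2 and Nanog), at 4 of 5 fibroblast markers, 3 of 4 trophoblast markers and 3 of 4 primitive endoderm markers. Over the markers with such a peak in all 4 libraries (7, 4, 3 and 3 genes), the medians of the best gene-end rank were 13.7%, 39.0%, 33.7% and 25.2% of the list, where a lower percentage is a stronger peak. Over all protein-coding genes 69.1% had such a peak, with a median of 9.42%, so the stem cell markers too were weaker than the median gene by this measure. The groups overlap: the trophoblast marker Cdx2 stood at 5.04% and the fibroblast marker Col1a1 at 13.0%, and the stem cell markers Pou5f1 and Esrrb at 5.31% and 56.2%. A peak list measures no RNA, so the presence of a peak says nothing of how strongly a gene was transcribed.

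The 10 genes act at several levels of the stem cell state. Sall4 encodes a zinc finger transcription factor, and Dppa2 and Dppa4 are neighbouring genes whose products act together on chromatin. Utf1 encodes a chromatin-associated protein of undifferentiated cells. Fgf4 is a secreted growth factor that drives ERK signalling, and Tdgf1 (Cripto) is a co-receptor for Nodal. Myc and Mycn are related transcription factors that bind DNA together with Max. Lin28a and Trim71 are RNA-binding proteins of the let-7 microRNA pathway: Lin28a blocks the maturation of let-7, and Trim71 is a classical target of let-7.

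The sequences just upstream of 4 annotated gene starts are shown, because they span the range of start accessibility among the 6 members whose strand was known: of these, Utf1 had the best-ranked peak at its start, Fgf4 the next, Tdgf1 a weak one and Mycn none in 2 libraries. The start was not told from the far end for Sall4, Dppa2, Dppa4 and Myc. Each is the 250 bases before the start from RefSeq (GRCm38.p6), 5′ to 3′ on the strand of the gene. Capitals mark matches to the 8 motifs searched, on either strand. Utf1 is at chr7:139943606-139943855 (plus strand), Fgf4 at chr7:144861136-144861385 (plus strand), Tdgf1 at chr9:110946159-110946408 (minus strand) and Mycn at chr12:12941837-12942086 (minus strand).
Utf1: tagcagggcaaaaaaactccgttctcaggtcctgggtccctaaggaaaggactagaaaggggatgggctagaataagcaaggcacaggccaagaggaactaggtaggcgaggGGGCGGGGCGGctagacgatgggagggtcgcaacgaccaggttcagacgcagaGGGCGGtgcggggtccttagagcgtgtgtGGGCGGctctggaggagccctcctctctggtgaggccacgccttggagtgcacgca
Fgf4: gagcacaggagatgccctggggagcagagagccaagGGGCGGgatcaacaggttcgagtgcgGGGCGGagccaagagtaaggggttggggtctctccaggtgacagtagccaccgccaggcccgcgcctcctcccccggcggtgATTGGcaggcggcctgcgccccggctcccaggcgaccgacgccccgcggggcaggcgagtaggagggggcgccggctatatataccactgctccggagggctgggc
Tdgf1: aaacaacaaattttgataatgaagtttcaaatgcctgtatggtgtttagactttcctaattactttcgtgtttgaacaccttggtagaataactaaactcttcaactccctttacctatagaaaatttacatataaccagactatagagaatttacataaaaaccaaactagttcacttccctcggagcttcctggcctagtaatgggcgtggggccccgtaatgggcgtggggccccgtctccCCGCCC
Mycn: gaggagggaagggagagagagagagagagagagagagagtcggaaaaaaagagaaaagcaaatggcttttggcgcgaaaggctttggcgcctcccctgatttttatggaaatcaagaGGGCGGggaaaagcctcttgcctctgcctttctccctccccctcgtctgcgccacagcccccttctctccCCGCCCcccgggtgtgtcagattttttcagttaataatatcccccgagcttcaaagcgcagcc

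The promoter table matched 6 of the 10 members: these 4, Lin28a and Trim71. Its start for Lin28a (chr4:134018816, minus strand) lies inside the gene body used for gene-end peaks, which ends at 134019196. The 250 bases read for Lin28a (chr4:134018817-134019066) are therefore inside that body. For the other matched members the start is an end of the gene body. The GC box GGGCGG was found upstream of 5 of the 6, all but Lin28a, with 4 matches at Utf1 of which the first pair shares a base, 2 each at Fgf4 and Mycn and 1 each at Tdgf1 and Trim71. It occurred in 32.7% of all 32851 promoter windows of the same length. Lin28a had the Sox motif ACAATG (10.7% of all windows), and Fgf4 had the CCAAT box CCAAT (33.8%). The octamer ATTTGCAT (1.60% of all windows), the Sox motif ACAAAG (16.5%), the E-box CACGTG (6.02%), the TATA box TATAAA (12.4%) and the ESRRB motif AAGGTCA (4.08%) were in none of the 6 windows. The GC content was 71.2% at Fgf4, 62.8% at Trim71, 61.6% at Utf1, 61.2% at Lin28a, 54.8% at Mycn and 42.0% at Tdgf1, against a median of 52.4% over all windows. CpG dinucleotides numbered 21 at Fgf4, 17 at Trim71, 14 at Utf1, 11 at Mycn and 7 at both Lin28a and Tdgf1 (median 6). The order of start accessibility given next does not follow the order of GC content: Trim71 and Lin28a had about the GC content of Utf1 and weaker start peaks.

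At the annotated starts, the best summit within 250 bp of the Utf1 start ranked in the first 3.85%, 3.25%, 2.91% and 3.42% of the list in wt replicates 1 and 2 and Hox-/- replicates 1 and 2. All values below are given in this order of libraries. At Fgf4 it ranked at 13.5%, 18.0%, 17.6% and 14.7%, with the summit 139 to 153 bp upstream of the start in each library. The start peaks of the other genes of known strand lay further down the lists. Lin28a had 25.2%, 35.5%, 53.7% and 39.7% at the start in the promoter table, which lies inside its gene body. Tdgf1 had 32.8%, 36.3%, 51.2% and 32.0%, and Trim71 had 43.1%, 39.9%, 41.9% and 55.8%. At Mycn a summit within 250 bp was listed in wt replicate 1 and Hox-/- replicate 2 alone, at 70.3% and 76.8%, in the weaker part of those lists. Within 2.5 kb of the start, 4 of these 6 genes had a better-ranked summit elsewhere in all 4 libraries. At Mycn the strongest summit lay 1638 to 1694 bp upstream, at Tdgf1 1448 to 1462 bp upstream and at Trim71 595 to 607 bp upstream. At Utf1, a short gene of 1257 bp, it lay 1841 to 1848 bp downstream, beyond the far end of the gene; by fold the Utf1 start summit was the higher in 3 of 4 libraries (8.56 to 9.23 at the start and 8.25 to 8.96 beyond the far end), wt replicate 1 being the exception.

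Every one of the 10 members had a gene-end peak in all 4 libraries, where 69.1% of all protein-coding genes did. With only the 50000 strongest peaks of each library the number was 6 of 10, and the share of all genes 49.3%. No member had a gene-end peak limited to a single genotype (called in both of its libraries and never in the other's). Over all genes this was the case for 0.640% in the direction of wt and 0.178% in the direction of Hox-/-. The median over members of the best gene-end rank was 14.9% of the list, against 9.42% over the 15118 genes with such a peak in every library, and 4 of 10 members ranked above the median gene. The 4 included Tdgf1, whose best gene-end peak had its summit 1448 to 1462 bp upstream of the start, beyond the 1 kb limit. The members' median lies between Fgf4 and Mycn and so depends on the Mycn intervals described further on. With peaks of the 4 libraries merged into regions first, a setting chosen after seeing the data, Mycn stood at 5.35%, the members' median at 11.5% against 9.38% over all genes, and 5 of 10 were above the median gene. Utf1 was the strongest by this measure and Lin28a the weakest.

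By role, the chromatin and transcription factors Sall4, Dppa2, Dppa4 and Utf1 spanned most of that range. The best gene-end peak of Utf1 ranked at 1.78%, 2.36%, 2.15% and 2.41% of the list, and lay 296 bp beyond the far end of the gene (chr7:139945408-139946364). Dppa2 had 7.27%, 7.98%, 8.84% and 7.71%, in a region that lay 754 bp below its lower-coordinate end. The region over that end itself ranked at 12.8%, 15.6%, 13.9% and 17.5%. Dppa4, the neighbour of Dppa2, had its best gene-end peak over its own lower-coordinate end. It ranked at 28.9%, 23.4%, 27.2% and 38.4% and was weaker than both Dppa2 regions in every library. The best gene-end peak of Sall4, at its higher-coordinate end (chr2:168766868-168767460), ranked at 10.7%, 6.47%, 10.8% and 7.09%, so that replicate 2 of each genotype was the stronger. For Sall4, Dppa2, Dppa4 and Myc no strand was taken from the tables, so their ends are named by coordinate.

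Of the signalling genes, Tdgf1 had its best gene-end peak at 8.49%, 7.70%, 8.40% and 10.1% of the list. It belongs to a 2019 bp region upstream of the start (chr9:110946407-110948425), apart from the weak peak over the start itself. The summit of this peak lay 1448 to 1462 bp upstream, beyond the 1 kb limit. It counted as a gene-end peak through its wide interval. Fgf4 had 13.5%, 11.9%, 16.8% and 14.7%, with peaks at both ends of the gene. The let-7 pathway genes were among the members with weaker gene ends. Lin28a had 25.2%, 35.5%, 43.0% and 39.7%, and Trim71 22.6%, 23.6%, 21.7% and 24.1%.

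Both MYC family members had a gene-end peak in every library, and in both the best-ranked peak of the window was distal. The best gene-end peak of Myc ranked 33233, 26235, 36719 and 40045 in the lists and lay over its lower-coordinate end (chr15:61984883-61985800). The best gene-end peak of Mycn ranked at 6.19% and 3.67% in wt and at 23.0% and 29.3% in Hox-/-, and these values do not overlap between the genotypes. This gap comes from how the intervals were divided. In both wt libraries 1 interval reached from the strong upstream summit to 449 and 516 bp from the start, so the strong summit counted as a gene-end peak. In both Hox-/- libraries the same summit had an interval of its own that began 1234 and 1200 bp from the start, outside the 1 kb limit. Its rank in the 4 lists was 13239, 7962, 11950 and 10615, and these overlap between the genotypes. The nearer summit, 715 to 736 bp upstream, ranked at 28.0%, 29.4%, 23.0% and 29.3%, which also overlap.

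**Figure D1:**
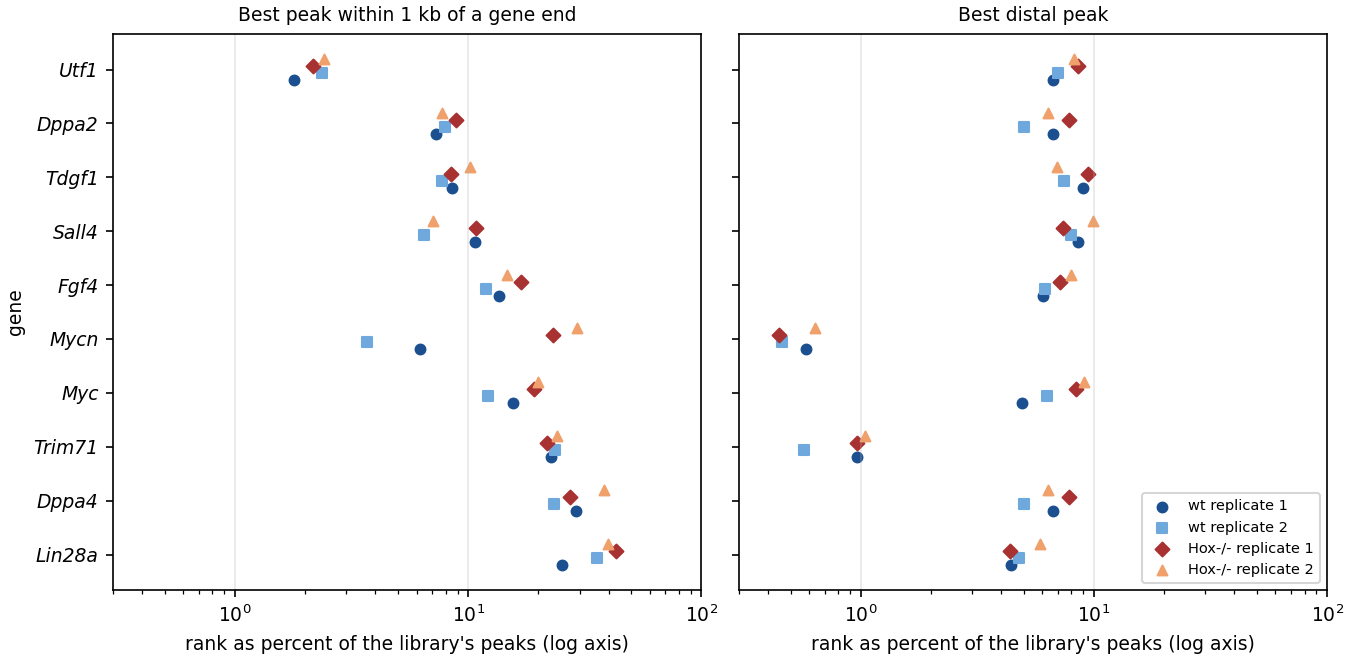
Rank of the best gene-end peak (left) and the best distal peak (right) of each member as a percentage of the library's peaks, on a log axis where values to the left are stronger; each point is 1 library. Utf1 stands at 1.78% to 2.41% on the left, Mycn and Trim71 reach 1.05% or better on the right, and the Mycn gene-end points separate by genotype through the division of 1 interval described in the text.

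In 7 of 10 members the best-ranked peak of the window was distal in all 4 libraries, as it was in 61.6% of the 19219 genes with a window peak in all 4 libraries. Utf1 was the 1 member whose best peak was at a gene end in all 4, and Sall4 and Tdgf1 differed between libraries. Over the same genes the best peak was at a gene end in all 4 for 28.5%. With ranks by fold 0 members had their best peak at a gene end in all 4, and with a flank of 10 kb or a gene-end distance of 2.5 kb 2 did. The median best distal rank of the members was 6.64% of the list, close to the 7.04% of all genes.

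The strongest region in any window was distal to Mycn, 8310 bp beyond the far end of the gene at chr12:12926884-12927783. It ranked 1240, 999, 852 and 1277 in the 4 lists, with a fold over background at the summit, as the authors' peak caller gave it, of 15.2, 16.5, 16.4 and 15.7. It was the 1 region of these windows in the first 1% of every list, and the ranks of the genotypes overlap. The best distal region of Trim71, at chr9:114583884-114585274, ranked 2049, 1235, 1849 and 2093. It lies near the far limit of the window and within 1 kb of an end of Cnot10, a neighbouring gene. The best distal regions of Lin28a (chr4:134000430-134001161, at 4.39%, 4.77%, 4.35% and 5.85%) and Sall4 (chr2:168741160-168741759, at 8.52%, 8.68%, 7.39% and 9.94%) also lie within 1 kb of the end of a neighbour, Dhdds and Atp9a. A best distal region is the one with the best mean rank over the libraries. At Sall4 a region inside the gene (chr2:168761029-168761586) ranked above that at Atp9a in replicate 2 of each genotype, at 7.98% in wt and 9.88% in Hox-/-. For these 3 members the best distal region is as near to another gene's end as a gene-end peak would be, and it cannot be assigned to a gene from position. Whether the best distal regions of the other members lie inside a neighbouring gene was not examined, so position does not assign those either.

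Dppa2 and Dppa4 shared their best distal region, which lies between them at chr16:48303250-48304348, 5926 bp from the nearer end of Dppa2 and 8958 bp from that of Dppa4. It ranked at 6.64%, 5.01%, 7.80% and 6.34%, with folds of 11.4, 12.5, 10.7 and 10.9. Fgf4 had its best distal region 9495 bp upstream of the start (chr7:144851050-144851891), at 6.04%, 6.17%, 7.15% and 7.96%. That of Utf1 (chr7:139930527-139931258) ranked 14200, 15170, 16363 and 16828 in the lists, and in Hox-/- replicate 2 another region (chr7:139950249-139950889) ranked higher, at 16472. The first of these carried the highest folds of the regions given here, 19.5, 20.1, 17.3 and 16.1. The regions of Tdgf1 (chr9:110960009-110961419) and Myc (chr15:61978459-61979363) ranked at 6.96% to 9.46% and 4.94% to 9.09%. All 10 members had at least 1 region in the first 10% of every list, 15 regions in all, as did 60.0% of all protein-coding genes. The 5 regions in the first 5% of every list belonged to Mycn, Utf1 and Trim71, or 3 of 10 members, against 41.6% of all genes.

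**Figure D2:**
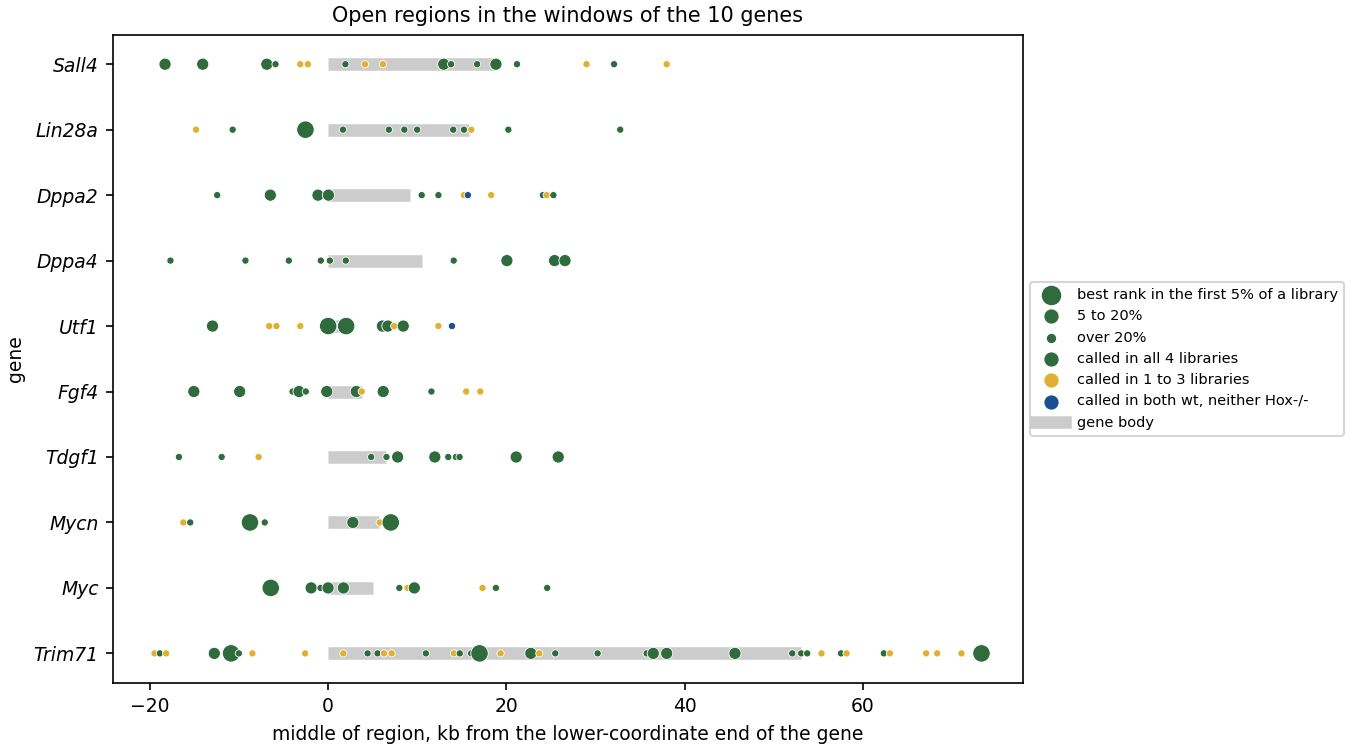
Middle of each region in the windows, in kb from the lower-coordinate end of the gene, with the gene body as a grey bar; colour gives the libraries that called it and size its best rank. Of 140 regions 98 were called in all 4 libraries, and the 2 blue points near Dppa2 and Utf1 are those called in both wt and neither Hox-/- library.

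Counts of window peaks were compared with those of all genes. The median number of window peaks per gene, averaged over the libraries, was 14.5 for the members and 10.25 for all genes. Per 10 kb of window the members had 2.24 to 4.14 peaks (median 2.91), against a median of 1.48 and an upper quartile of 2.31 over all genes. All 10 members were above that median and 9 above that quartile, Mycn being the exception. Trim71, the longest gene at 53102 bp, had the most peaks (37, 42, 36 and 39). By the mean over the libraries Mycn (11, 12, 8 and 10) and Myc (11, 12, 11 and 11) had the fewest. These counts were made with every listed line, and several lines can share 1 interval.

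With a peak in overlapping windows counted once, the 10 windows held 168 and 173 peaks in the wt libraries and 146 and 165 in the Hox-/- libraries, or 170.5 ± 3.54 against 155.5 ± 13.4 (SD, n = 2 each). Both Hox-/- libraries were below both wt libraries. The difference of −15 peaks had p = 0.33 in an exact two-sided permutation test, the smallest p that 2 against 2 libraries allow. Without Hox-/- replicate 1, the library of lowest depth, the difference was −5.5, and without Hox-/- replicate 2 it was −24.5. In lists of equal length it was −1.5 with the 100000 strongest peaks of each library, and with the 50000 strongest it turned to 3. With the overlapping lines of each library merged it was −6.5. The whole lists differed in the same proportion: Hox-/- had 91.2% of the wt number in the windows and 91.0% in all. Per 10000 listed peaks, the windows held 7.86 and 7.98 in wt and 7.62 and 8.24 in Hox-/-, and these overlap. The part of depth in the difference was not tested.

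Gene by gene, 2 members had fewer window peaks in both Hox-/- than in both wt libraries, which 22.9% of all genes had: Tdgf1 (20 and 20 against 16 and 18) and Mycn (11 and 12 against 8 and 10). Fgf4 (12 and 12 against 13 and 13) was the 1 member with more, against 3.21% of all genes. In the other 7 the counts of the genotypes overlapped or were tied, as for Sall4 with 23 and 22 in wt and 21 and 22 in Hox-/-. Of the window peaks, 20.2% and 19.7% were at gene ends in wt and 20.5% and 20.6% in Hox-/-. Both Hox-/- values were above both wt values. The difference of 0.631 percentage points had p = 0.33 in the exact permutation test, again the smallest possible. It was −2.82 with the 50000 strongest peaks of each library, −0.0913 with gene ends within 2.5 kb and 1.86 with overlapping lines merged, so its direction depended on these settings.

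**Figure D3:**
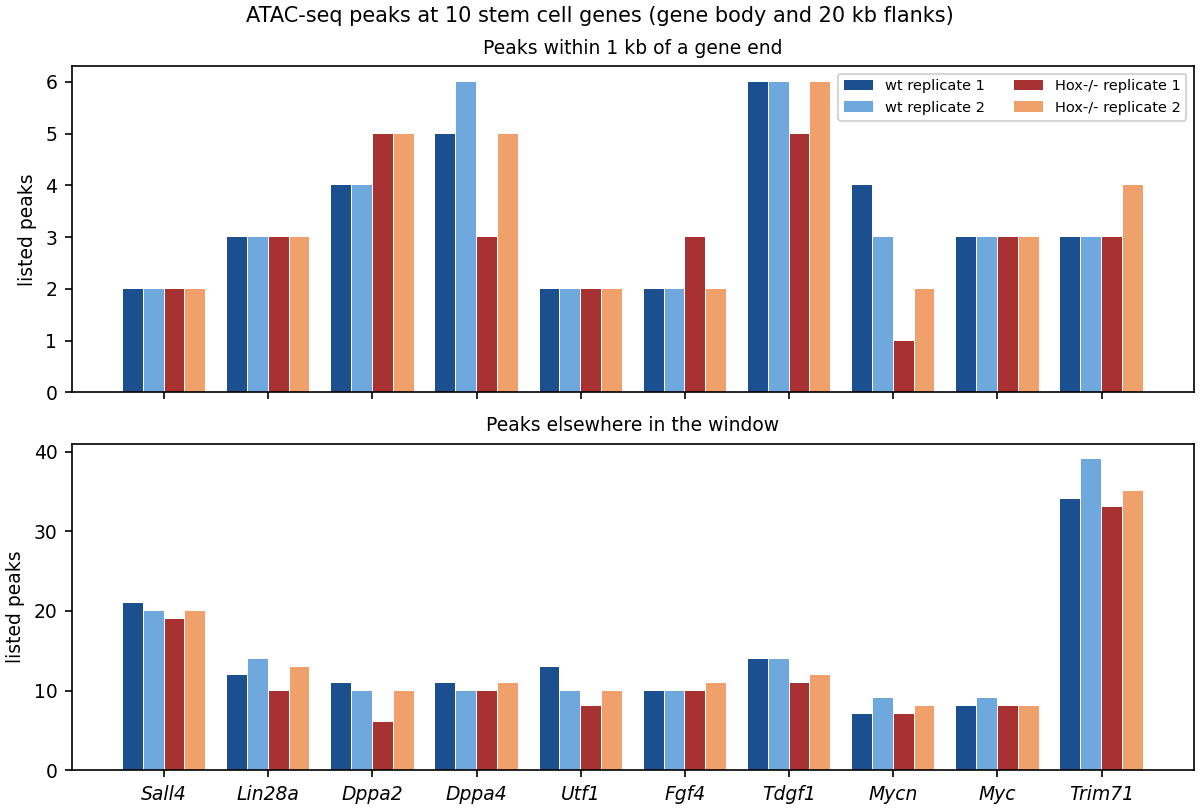
Number of listed peaks within 1 kb of a gene end (top) and elsewhere in the window (bottom) for each member, 1 bar per library and no error bar. Trim71 has 36 to 42 peaks in all, and for most genes the bars of the genotypes overlap.

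To compare the genotypes place by place, the peaks of the 4 libraries were merged into regions wherever they overlapped by at least 1 bp. The windows held 140 regions, 4 of them in 2 windows. Of these 98, or 70%, were called in all 4 libraries, against 59.0% of all 208141 regions. The other 42 were called in 3 libraries (14), 2 (10) or 1 (18) and were narrower, with a median width of 269.5 bp against 591.5 bp. All 10 regions of Dppa4 were called in every library, as were 11 of 12 at Tdgf1 and 10 of 12 at Lin28a. At Utf1 6 of 12 were, and at Trim71 23 of 39.

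Regions called in both wt libraries and neither Hox-/- library numbered 2 of 140 (1.43%), and this class made up 3.84% of all regions. Both were weak. The 1 near Dppa2, at chr16:48325758-48326163, ranked 209401 and 203495 in the wt lists, almost at their end. The 1 near Utf1, at chr7:139957472-139958047, ranked 163792 and 146873. No region was called in both Hox-/- libraries and neither wt library, a class of 1.23% of all regions. Leaving out 1 library at a time raised these counts to between 4 and 10 for wt and between 2 and 5 for Hox-/-, as fewer libraries have to concur. With the 100000 strongest peaks of each library they were 1 for wt and 3 for Hox-/-, and with the 50000 strongest 0 and 0.

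Among the 98 shared regions, ranks were taken anew within the 122749 regions called in all 4 libraries, so that the lists compared have equal length. In 19 of them (19.4%) both Hox-/- libraries ranked the region higher than both wt libraries, which held for 20.5% of all shared regions. In 21 (21.4%) both wt libraries did, against 20.3%. Both shares are near the background. The counts themselves depend on the settings: leaving out 1 library gave 32 to 36 and 32 to 47, the 100000 strongest peaks 10 and 12, and the 50000 strongest 6 and 6. The log2 rank shift, positive where the region ranked higher in Hox-/-, ran from −0.50 to 0.66 with a median of −0.02. The median over all shared regions was 0.00, with 5% and 95% points of −0.48 and 0.47. For scale, the median absolute log2 difference between replicates was 0.19 in wt and 0.21 in Hox-/-.

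**Figure D4:**
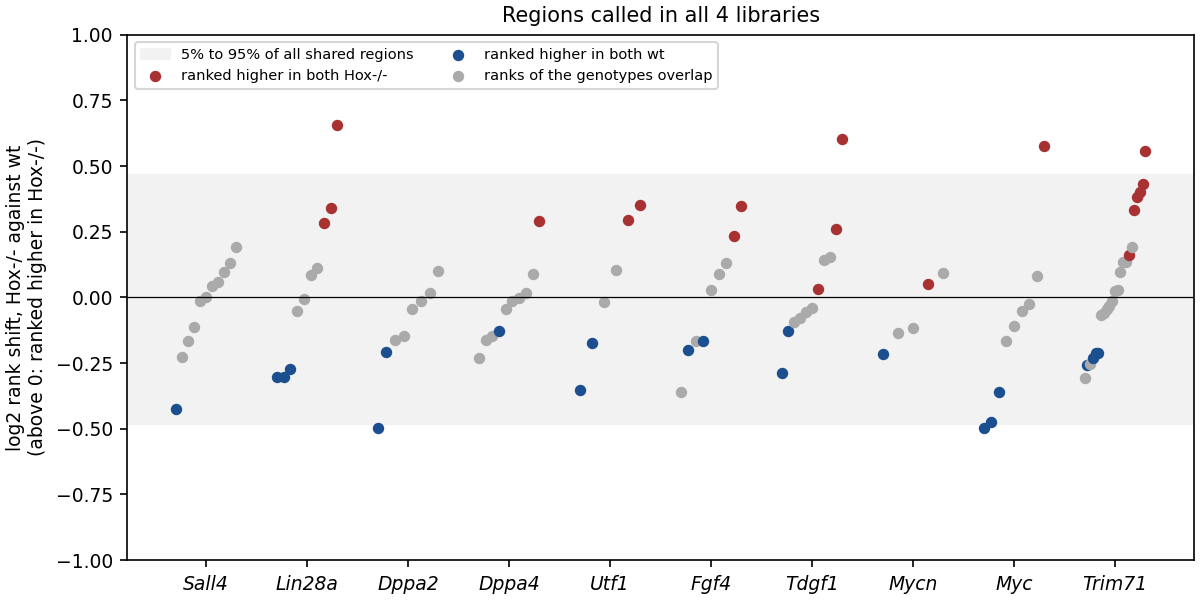
Log2 rank shift of each of the members' regions called in all 4 libraries, ordered within a gene; the grey band runs from the 5% to the 95% point of all 122749 shared regions. Most points lie inside the band, with red and blue points marking regions whose ranks do not overlap between the genotypes.

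The largest shifts toward Hox-/- were in regions of moderate or weak rank. At Lin28a, inside the gene (chr4:134011244-134012531), the ranks among shared regions were 81643.5 and 64696.5 in wt and 42075 and 50570 in Hox-/-, a shift of 0.66. At Tdgf1 (chr9:110953771-110954139) they were 70724 and 75885.5 against 53090 and 43796, a shift of 0.60. At Myc (chr15:61984358-61984637), a gene-end region 704 bp below the gene, they were 98440 and 84932 against 63999 and 58687, a shift of 0.58. These 3 and 1 region of Trim71 lie beyond the 95% point of all shared regions, 4 of 98 or 4.08%. Toward wt 2 of 98, or 2.04%, lie beyond the 5% point, so neither tail holds more than its 5% share of all shared regions.

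The largest shifts toward wt were at Dppa2 and Myc. At Dppa2 (chr16:48335290-48335823) the ranks were 43584.5 and 59192 in wt and 81330.5 and 63306 in Hox-/-, a shift of −0.50. The best distal region of Myc (chr15:61978459-61979363) ranked 10217 and 13164 against 15348 and 17433, a shift of −0.50, and a region on the other side of the gene (chr15:61994594-61995450) ranked 20353 and 25400 against 31107.5 and 32097, a shift of −0.47. The stronger gene-end region of Myc, over the end itself, ranked 30848 and 24600 against 33723 and 37066, a shift of −0.36. Of the 9 shared regions of Myc, 3 ranked higher in both wt libraries and 1 in both Hox-/- libraries. Its 2 gene-end regions went in opposite directions. At Lin28a 3 of 10 shared regions ranked higher in each genotype, and the region over its start (chr4:134018029-134019125) was among those higher in wt, at 48610 and 67249.5 against 71177 and 69837.5. The Utf1 start region (chr7:139943575-139944164) was among those higher in Hox-/-, at 8010 and 6870 against 5459 and 6705, a shift of 0.29. Sall4 had 1 of 11 shared regions ranked higher in wt and none in the other direction. Regions that do not overlap between 2 and 2 libraries are common across the genome at these shares, so no single region is called different.

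Among 19 related genes (paralogs, binding partners, receptors and other stem cell genes), 17 had a gene-end peak in all 4 libraries and 2, Dis3l2 and Dppa3, in none. None had one in 1 genotype only, and their median best gene-end rank was 11.4% of the list. Max, the shared binding partner of Myc and Mycn, had the strongest at 0.362%, 0.116%, 0.353% and 0.196%. It was far ahead of the gene-end peaks of Myc and Mycn. L1td1, an RNA-binding protein of stem cells, followed at 2.78%, 3.22%, 2.41% and 2.83%, and the activin receptor gene Acvr2b at 2.62%, 3.97%, 2.94% and 3.23%. Sall2, a paralog of Sall4, had the weakest of the listed ones at 48.3%, 42.7%, 54.9% and 52.9%. The range of these partners and paralogs covers that of the members, and no set test was made.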

How the data were processed

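The authors deposited 1 peak list per library (2 wt, 2 Hox-/-), called per library and not pooled. Per the submitters' processing notes the build was mm10 and the tools included cutadapt 4.8, Bowtie2 2.5.0, Picard 2.18.2, bedtools 2.30.0, MACS2 2.2.9.1 and deepTools 3.5.4; duplicate handling and read shifting are not given in the sources used here. Each deposited line has a fold ratio over background, a −log10 p, a −log10 q (lowest 1.30) and a summit offset. The lists hold no read counts, so depth is known only relatively, from the background that fold and p give under a Poisson model (0.1% quantile).

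Peaks were ranked by −log10 p within a library (Python 3.11.15, pandas 2.3.3, scipy 1.17.1). Gene ends came from RefSeq GRCm38.p6: in wt replicate 1, 31.0% of 43254 ends lay within 250 bp of a summit, and 6.42% to 7.06% did after displacement by 3000 or 10000 bp. Strand came from the promoter table; exons and introns were not analysed here. Libraries were grouped by the genotype label. Named are all members, each one's best gene-end and best distal region, regions called in 1 genotype only, the 3 largest rank shifts each way, and the 3 best and 3 poorest related genes. The members and lists were chosen with earlier results of these data known. The summits around annotated starts, the Mycn intervals, the Utf1 start region and the second distal regions of Sall4 and Utf1 were singled out after their values were seen. The code was tested on simulated lists. Alternatives covered the number of peaks, q limit, flank, gene-end distance, summit placement, merged lines, rank by fold, overlap and each library left out.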

Additional observations from a re-analysis of the deposited data

How the results depend on the processing

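Of 111 alternative values, 71 kept their direction (for the 2 differences, whatever their size) or stayed within 1.5 times the count given, 37 counts moved further and 3 differences changed sign; the cause was not tested. With only the 50000 peaks of highest −log10 p per library, the difference in window peaks turned from −15 to 3 and that in the percentage at gene ends from 0.631 to −2.82; 6 members had a gene-end peak in all 4 libraries, 39 regions were called in all 4, 0 in wt alone, and 6 ranked higher in each genotype. With 100000 peaks the difference was −1.5, with 61 regions in all 4 libraries, 1 in wt alone, 3 in Hox-/- alone, and 10 and 12 ranked higher in Hox-/- and wt. With −log10 q of at least 5, 4 regions were in wt alone and 1 in Hox-/- alone. With gene ends within 2.5 kb, the percentage difference was −0.0913 and 2 members had their best peak at a gene end; with rank by fold 0 did. A flank of 10 kb gave 2 such members and 1 region in wt alone. A flank of 50 kb gave a difference of −28 peaks, 170 regions in all 4 libraries, 5 in wt alone, 2 in Hox-/- alone, and 31 and 37 ranked higher in Hox-/- and wt. Merging overlapping lines gave −6.5 peaks and 1.86 percentage points; placing peaks by summit gave 0.185 points. Leaving out 1 library at a time gave −24.5 to −5.5 peaks and 0.339 to 0.924 points, 4 to 10 regions in wt alone, 2 to 5 in Hox-/- alone, and 32 to 36 and 32 to 47 ranked higher in Hox-/- and wt.

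With the replicate block, the differences were −15 peaks and 0.631 points, equal to those without it. Whether libraries of the same replicate number were prepared together is not known. The replicate differences of the 2 genotypes had r = 0.00409 over 122749 regions, and a single correlation cannot settle this.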
